A study of Mus musculus with 2 samples.

Results

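The genes described here are 9 genes of salt transport in the distal nephron: Slc12a1, Slc12a3, Umod, Kcnj1, Bsnd, Scnn1a, Scnn1b, Scnn1g and Wnk1. The distal nephron is taken here as the kidney tubule from the thick ascending limb of the loop of Henle to the collecting duct. The 9 genes were taken by symbol from the gene table, which holds 31053 genes, and all 9 were found there and had reads in both libraries. They are followed across tubule segments that were named from other marker genes, and the 9 members were also left out of the variable genes used for clustering. The study measured single-cell RNA of the kidney cortex of 12-week-old mice with a droplet kit that reads the 3′ end of transcripts. It has 1 library labelled as podocyte I-PpoI and 1 labelled as wild type. I-PpoI is a homing endonuclease that cuts DNA at a few sites in the genome, and podocytes are the cells of the glomerular filter. The enzyme is therefore assigned to a cell type that lies upstream of all tubule segments. The sources used here do not give the promoter or Cre line that drives the enzyme, the sex of the animals or how many mice went into a library.

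No replicate exists in either group, each being 1 library, and so no test was made. Each value is given for both libraries, and the intervals in parentheses are exact 95% intervals that cover counting error only. A level is the number of unique molecular identifiers (UMIs, counted transcript ends) of a gene in every 1000000 UMIs of the same cells (counts per 1000000, CPM), not divided by transcript length, so levels are compared within a gene. A ratio is the I-PpoI level divided by the wild-type level. After filtering, 3949 I-PpoI cells with 35037164 UMIs and 3094 wild-type cells with 19595441 UMIs were kept. The median cell held 6647 UMIs in the I-PpoI library and 3486.5 in the wild-type library, and mitochondrial genes took 3.31% and 14.3% of the UMIs of the median cell. Cell makeup differed, with 41.4% macrophage-like cells in the I-PpoI library against 6.04%, and 11.1% proximal tubule-like cells against 43.4%.

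Salt is taken back along the distal nephron by a different apical carrier in each segment. In the thick ascending limb the Na-K-2Cl cotransporter NKCC2 (Slc12a1) works with the potassium channel ROMK (Kcnj1), which returns potassium to the lumen, and with basolateral chloride channels that need the subunit barttin (Bsnd). The same cells secrete uromodulin (Umod), the most abundant protein of normal urine. In the distal convoluted tubule the Na-Cl cotransporter NCC (Slc12a3), the target of thiazide diuretics, is switched on by a kinase cascade headed by WNK kinases such as Wnk1. In the connecting tubule and the principal cells of the collecting duct sodium enters through the epithelial sodium channel ENaC, whose alpha, beta and gamma subunits are Scnn1a, Scnn1b and Scnn1g.

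The members lie on 6 chromosomes of the mouse (build GRCm38, the build of the mm10 reference, annotation GENCODE vM21), and each is a protein-coding gene. Slc12a1 spans chr2:125152505-125230002 on the plus strand, Slc12a3 chr8:94329201-94366214 on the plus strand and Umod chr7:119462711-119479282 on the minus strand. Kcnj1 lies at chr9:32372493-32399197 on the plus strand and Bsnd at chr4:106483456-106492283 on the minus strand. Scnn1a is at chr6:125320659-125344943 on the plus strand and Wnk1 at chr6:119923969-120038672 on the minus strand. Scnn1g (chr7:121734479-121768475) and Scnn1b (chr7:121865038-121918514) share a strand on chromosome 7 with 96562 bases between them.

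Promoter sequences are shown for Slc12a1 and Umod, which mark the thick ascending limb and differed most between the libraries in UMIs, and for Slc12a3, which marks the next segment. They come from RefSeq (GRCm38.p6), run 5′ to 3′ on the strand of the gene and hold the bases before the gene start in GENCODE. Capitals mark a match to a searched motif. RefSeq entries matched 7 of the 9 members by symbol, and Bsnd and Scnn1a were the other two.
Slc12a1 (chr2:125152350-125152504, plus strand): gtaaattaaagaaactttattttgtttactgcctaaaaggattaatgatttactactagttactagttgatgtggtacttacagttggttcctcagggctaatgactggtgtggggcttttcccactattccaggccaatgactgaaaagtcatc
Umod (chr7:119479283-119479512, minus strand): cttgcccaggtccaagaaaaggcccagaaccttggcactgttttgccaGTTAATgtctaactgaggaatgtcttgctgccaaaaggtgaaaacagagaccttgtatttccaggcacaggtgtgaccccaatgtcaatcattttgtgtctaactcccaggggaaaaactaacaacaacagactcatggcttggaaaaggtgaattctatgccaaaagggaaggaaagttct
Slc12a3 (chr8:94328958-94329200, plus strand): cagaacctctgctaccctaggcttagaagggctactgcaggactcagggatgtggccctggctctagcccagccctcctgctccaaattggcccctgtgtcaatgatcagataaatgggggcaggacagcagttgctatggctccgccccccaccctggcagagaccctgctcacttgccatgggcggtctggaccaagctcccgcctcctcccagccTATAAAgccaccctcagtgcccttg
Motifs were searched on both strands in the 250 bases before the RefSeq start of each of the 7 genes. GTTAAT, a half-site of the HNF1 factors that tubule cells express, was found in Umod, at 202 to 197 bases before the start, and 6.43% of 32851 RefSeq promoters of this length hold it. TATAAA, the core of a TATA box, was found in Slc12a3 at 32 to 27 bases before the start, and 12.4% of promoters hold it. AGAACA, a half-site of glucocorticoid and mineralocorticoid receptors, was found in Kcnj1 at 190 to 185 and at 14 to 9 bases before the start, and 16.1% of promoters hold it. The Kcnj1 window (chr9:32393735-32393984) lies inside the gene as GENCODE draws it. Its matches are therefore upstream of the RefSeq start but not of the gene start given above. Slc12a1, Scnn1b, Scnn1g and Wnk1 had none of these letters in the window. A match is a description of the sequence and no evidence of binding.

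Over all kept cells, each of the 9 genes had a lower level in the I-PpoI library. Slc12a1, the salt carrier of the thick ascending limb, had 4018 UMIs in the I-PpoI and 15179 in the wild-type library, or 115 against 775 CPM, a ratio of 0.148 (0.143 to 0.153). Umod, from the same cells, had 14220 and 33969 UMIs, or 406 against 1734 CPM, a ratio of 0.234 (0.230 to 0.239). Bsnd and Kcnj1, which serve salt uptake in several segments, lay between these 2 genes with 5.28 against 24.8 CPM (ratio 0.213, 0.179 to 0.253) and 24.2 against 112 CPM (0.216, 0.199 to 0.234). Slc12a3, the carrier of the distal convoluted tubule, stood at 65.8 against 191 CPM, a ratio of 0.344 (0.327 to 0.363).

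The ENaC subunits differed less, apart from gamma. Scnn1a had 37.1 against 72.1 CPM (ratio 0.514, 0.476 to 0.555) and Scnn1b 16.9 against 31.0 CPM (0.545, 0.485 to 0.611). Scnn1g had 10.3 against 30.3 CPM, a ratio of 0.338 (0.296 to 0.386), and its interval lies below those of its partner subunits. Wnk1, which is expressed far beyond the tubule, had the ratio nearest to 1, at 232 against 268 CPM (0.865, 0.835 to 0.896). In all, 6 of the 9 genes were at least 2-fold lower in the I-PpoI library, where 13.3% of the 14175 genes with at least 50 UMIs were. The median log2 ratio was -1.56 for the members and 0.03 for all those genes. In sums over a whole library, fewer distal cells and less RNA of a gene per cell cannot be told apart. Counts of distal cells are therefore given with the levels within them.

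**Figure D1:**
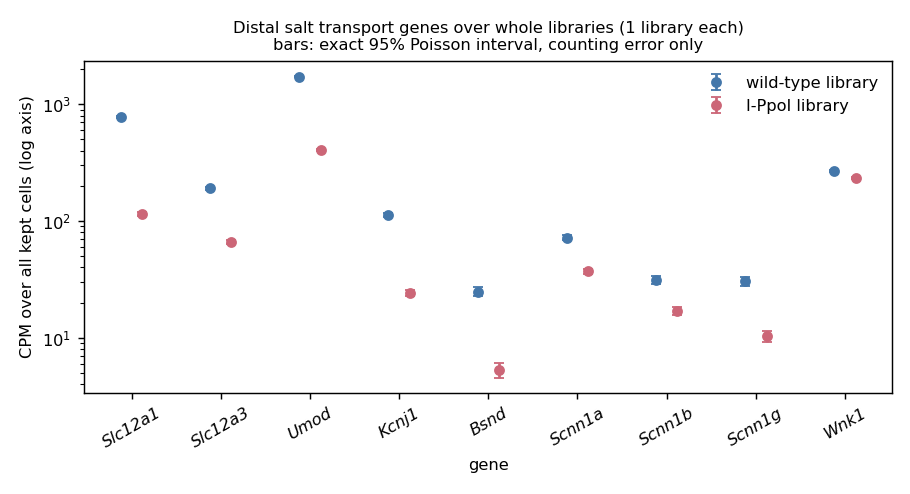
Level of each gene over all kept cells (CPM, logarithmic axis) in the wild-type and I-PpoI libraries, 1 point per library with exact 95% Poisson intervals. Every gene is lower in the I-PpoI library, from 0.148 of the wild-type level for Slc12a1 to 0.865 for Wnk1.

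Cells of the distal epithelium were grouped into 12 sub-clusters, of which 8 could be named from their markers and 4 could not. Together they held 354 I-PpoI cells (8.96% of kept cells) and 519 wild-type cells (16.8%). Thick ascending limb-like cells numbered 73 (1.85%, 1.45 to 2.32) in the I-PpoI and 257 (8.31%, 7.36 to 9.33) in the wild-type library. All 11 of their markers, such as Egf and Cldn10, had UMIs in both, but at sums of 3921 and 15907.5 CPM. The I-PpoI library held 1 distal convoluted tubule-like cell against 41 and 1 principal cell-like cell against 28. Connecting tubule-like cells numbered 37 and 47, intercalated cell-like cells 33 and 48, and thin limb-like cells 3 and 36. By contrast, 189 I-PpoI cells and 1 wild-type cell lay in 3 unnamed sub-clusters, numbered 0, 3 and 4. The remaining unnamed sub-cluster, number 10, held 17 and 61 shallow cells with markers of both distal convoluted and connecting tubule. In the distal epithelium as a whole, injured epithelium genes such as Lcn2 and Spp1 summed to 41349 CPM in the I-PpoI and 4984 CPM in the wild-type library, and their part in the differences described here was not tested.

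In the wild-type library each carrier had its highest level in the segment where textbooks place it. Of the Slc12a1 UMIs, 98.6% were in thick ascending limb-like cells, at 8075 CPM (7946 to 8205), against 8.21 CPM in distal convoluted tubule-like cells and none in connecting tubule-like cells. Umod was also highest in the thick ascending limb, at 17105 CPM with 93.3% of its UMIs, and distal convoluted tubule-like cells followed with 3074 CPM and 4.41%. Slc12a3 had 91.9% of its UMIs in the 41 distal convoluted tubule-like cells, at 7059 CPM (6826 to 7299). Its next levels were 1108 CPM in sub-cluster 10 and 172 CPM in connecting tubule-like cells, where 1 cell held 83.6% of the UMIs. These shares depend on the clustering, and in coarser clusters distal convoluted, connecting and principal-like cells together held 2.96% of the Slc12a3 UMIs in place of 94.8%.

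Kcnj1 and Bsnd were spread over several segments. Kcnj1 was at 798 CPM (721 to 882) in distal convoluted, 650 (589 to 716) in connecting and 537 (505 to 572) in thick ascending limb-like cells, then at 287 (246 to 331) in principal and 185 (158 to 217) in intercalated cell-like cells. These 5 intervals do not overlap, and thick ascending limb-like cells, the most numerous class, held 45.4% of the UMIs. Bsnd was highest in intercalated cell-like cells, where barttin also serves chloride channels, at 187 CPM (159 to 218). Its levels in thick ascending limb-like (114, 99.0 to 130), distal convoluted (101, 74.4 to 133) and connecting tubule-like cells (76.8, 56.8 to 102) had overlapping intervals, and principal cell-like cells stood far below at 9.45 CPM from 6 UMIs.

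Among the ENaC subunits, Scnn1a had a wider range than its partners. Scnn1a was at 578 CPM (521 to 640) in connecting tubule, 445 (401 to 492) in intercalated and 361 (310 to 419) in distal convoluted tubule-like cells. It was at 180 (148 to 216) in principal and 175 (157 to 196) in thick ascending limb-like cells, which do not differ beyond counting error. Scnn1b and Scnn1g had no UMI in the 257 thick ascending limb-like cells, which allows a share of cells with a UMI of up to 1.17% at a limit of 3 cells, with an exact upper bound of 1.43%. Scnn1b stood at 508 CPM in connecting tubule, 208 in intercalated, 145 in principal and 18.5 in distal convoluted tubule-like cells. Scnn1g stood at 534, 139, 183 and 10.3 CPM in the same order, and its intervals in intercalated (115 to 167) and principal cell-like cells (151 to 219) overlap. Intercalated cells are not the textbook site of ENaC, and the intercalated cell-like cells of this library also held markers of principal cells at 2102 CPM and of connecting tubule at 11397 CPM. The part of these markers in the ENaC levels was not tested.

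Wnk1 was highest in distal convoluted tubule-like cells, at 2721 CPM (2577 to 2872), then at 1514 CPM in sub-cluster 10, 1006 CPM in connecting tubule-like, 445 CPM in thick ascending limb-like and 97.6 CPM in principal cell-like cells. Of its wild-type UMIs, 36.6% lay outside the distal epithelium. A short kidney-specific form of Wnk1, made in the distal convoluted tubule, shares its 3′ end with the full kinase, so these forms cannot be told apart in these counts.

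**Figure D2:**
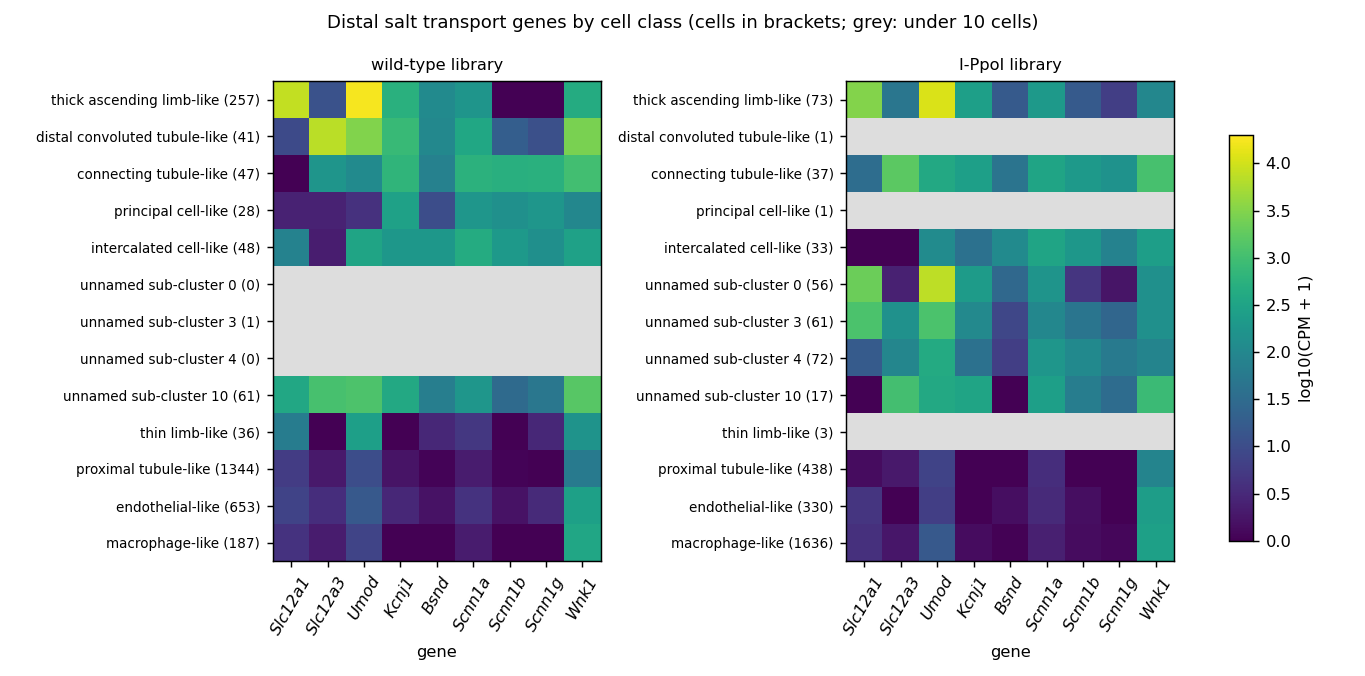
Level of each gene (columns, log10 of CPM + 1) by cell class (rows, cells in brackets) in the wild-type and the I-PpoI library, with grey where a class has under 10 cells. In the wild-type library Slc12a1 and Slc12a3 peak in separate rows, at 8075 and 7059 CPM, and in the I-PpoI library Slc12a1 and Umod are also high in unnamed sub-cluster 0.

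In the I-PpoI library the same genes lay in other cells. Sub-cluster 0, with 56 I-PpoI and no wild-type cells, held 72.0% of the library's Slc12a1 UMIs and 70.4% of its Umod UMIs, at 2134 and 7387 CPM. Thick ascending limb-like cells held 15.2% and 14.96%. The leading genes of sub-cluster 0 were Cldn10 of the thick ascending limb, Psca, Mmp7 and Lcn2, and 9 of 11 thick ascending limb markers passed the marker limits in it. Its best match by score was the thin limb, and it was left unnamed because its leading genes held more markers of other classes. Its injured epithelium genes summed to 54194 CPM, its median cell had 17345.5 UMIs and mitochondrial genes took 7.80% of its UMIs. Kcnj1 was at 227 CPM, Scnn1a at 170 CPM and Bsnd at 27.3 CPM there, while Scnn1b and Scnn1g had 5 UMIs and 1 UMI.

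Sub-cluster 3, with 61 I-PpoI cells, had Slc12a1 at 1195 and Umod at 1228 CPM, and its leading genes included the predicted transcripts Gm26917 and Gm47283, Adamts1 and Lars2. Sub-cluster 4, with 72 I-PpoI cells led by keratin and Sprr genes of stratified epithelium, also had ENaC. Its best match by score was the urothelium, and it was left unnamed because only 4 of 9 urothelium markers passed the limits. Urothelium markers summed to 932 CPM in it and principal cell markers to 1076 CPM, so whether these are distal tubule cells is not settled. Sub-cluster 4 held 34.2% of the library's Scnn1b, 30.4% of its Scnn1g and 26.0% of its Scnn1a UMIs, at 107, 57.7 and 179 CPM. Connecting tubule-like I-PpoI cells held more, with 37.2%, 44.8% and 26.8% at 208, 152 and 329 CPM. Umod was at 424 CPM in sub-cluster 4, where 1 cell held 57.8% of its UMIs, and Slc12a1 at 16.4 CPM.

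The Slc12a3 UMIs were also in another class than in the wild-type library. In the I-PpoI library 75.4% of them were in connecting tubule-like cells and 12.5% in the single distal convoluted tubule-like cell, which held 287 Slc12a3, 103 Wnk1 and 86 Umod UMIs. Of the Wnk1 UMIs, 76.7% lay outside the distal epithelium and 50.7% in macrophage-like cells.

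**Figure D3:**
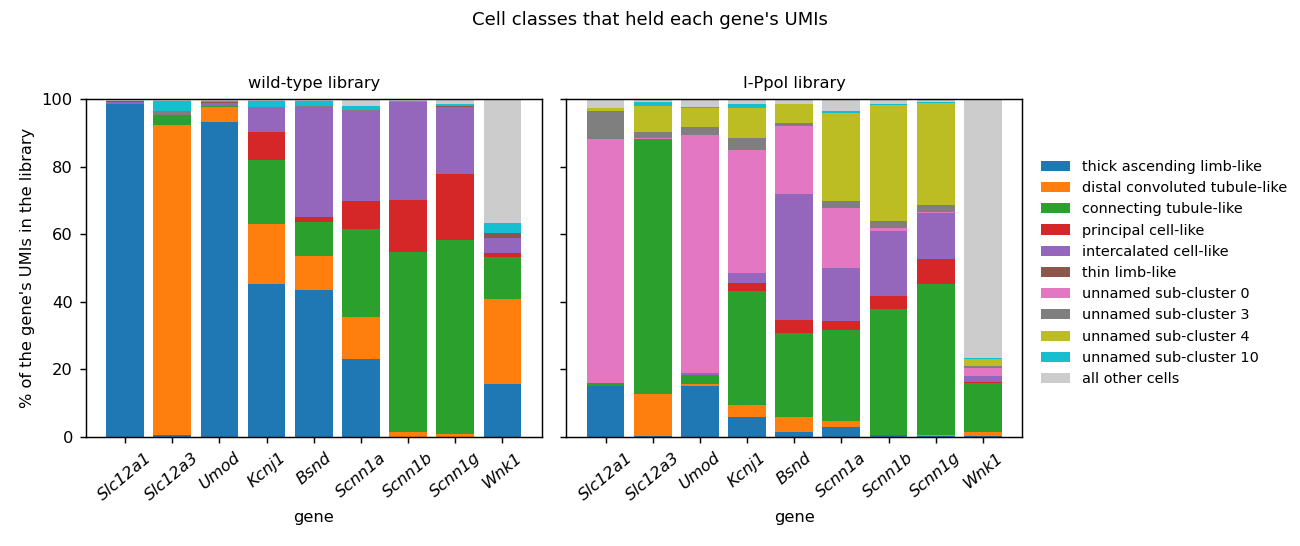
Share of each gene's UMIs (% of the library's total for that gene) held by each cell class, in the wild-type and I-PpoI libraries. Thick ascending limb-like cells hold 98.6% of Slc12a1 in the wild-type library and 15.2% in the I-PpoI library, where sub-cluster 0 holds 72.0%.

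Summed over all 12 distal sub-clusters, named or not, each of the 9 genes was again lower in the I-PpoI library. The ratio was nearer to 1 than over all kept cells for 8 of them and further from 1 for Wnk1. Slc12a1 had the smallest ratio, 0.237 (0.229 to 0.246), then Bsnd at 0.346 (0.291 to 0.412), Kcnj1 at 0.351 (0.324 to 0.380) and Umod at 0.376 (0.369 to 0.384). Wnk1 (0.521, 0.493 to 0.552), Scnn1g (0.557, 0.487 to 0.637) and Slc12a3 (0.563, 0.534 to 0.593) were near 2-fold lower. Scnn1a stood at 0.830 (0.768 to 0.897) and Scnn1b at 0.884 (0.788 to 0.992). At least 2-fold lower were 4 of the 9 genes, against 5.56% of 10225 genes, and the median log2 ratio was -0.94 against 0.18 for all those genes. These sums include sub-cluster 4, whose place in the distal tubule is not settled. It held 1888249 of the 5513400 I-PpoI UMIs summed here and no wild-type cell. With Slc12a1 at 16.4, Slc12a3 at 93.2 and Umod at 424 CPM, it lowers the I-PpoI levels of these genes. Ratios without it were not computed.

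Mitochondrial content moved with these values. In the wild-type library 22.4% of Slc12a1 UMIs and 23.2% of Umod UMIs came from cells with at most 25% mitochondrial UMIs, which were 71.1% of its kept cells. In the I-PpoI library 90.0% and 89.0% did, from 96.4% of cells. Within such cells of the distal epithelium (287 I-PpoI and 260 wild-type), Slc12a1 was at 673.5 against 1173 CPM, a ratio of 0.574 (0.547 to 0.602), and Umod at 2363 against 2712 CPM, a ratio of 0.871 (0.847 to 0.897). Among the other members, Slc12a3 stood at 0.392, Kcnj1 at 0.392, Scnn1g at 0.394, Bsnd at 0.440, Wnk1 at 0.503, Scnn1b at 0.621 and Scnn1a at 0.742. Umod, with a lower ratio than 5 of the members over all distal cells, had the ratio nearest to 1 in these cells. The limit also changed the mix of segments. It left out 176 of the 257 wild-type and 34 of the 73 I-PpoI thick ascending limb-like cells. Within that class the same limit moved the ratios further from 1, from 0.656 to 0.466 for Umod and from 0.400 to 0.340 for Slc12a1.

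The named salt-transporting classes as 1 group (thick ascending limb, distal convoluted, connecting and principal, 112 against 373 cells) are a different mixture in each library. In them Slc12a1 (ratio 0.117) and Umod (0.214) were at least 2-fold lower, 2 of 9 members where 5.9% of 7871 genes were, and 0 were at least 2-fold higher, where 5.63% were. The median log2 ratio was 0.15 for the members and 0.11 for all those genes. The members' median was negative in most alternatives of the filter, the clustering and the scaling (values in the closing section).

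**Figure D4:**
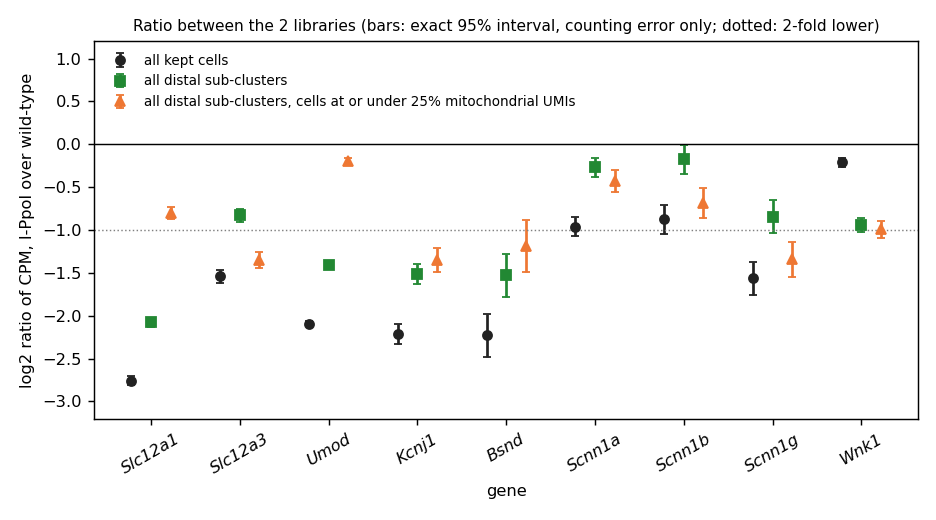
Ratio of I-PpoI to wild-type level (log2) of each gene over all kept cells, over all distal sub-clusters and over distal cells with at most 25% mitochondrial UMIs, with exact 95% intervals. Slc12a1 goes from 0.148 to 0.237 to 0.574 and Umod from 0.234 to 0.376 to 0.871 in these sets of cells. The sets differ in their mix of segments, and both distal sets include sub-cluster 4, which has no wild-type cell.

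Within thick ascending limb-like cells, Slc12a1 had 612 UMIs at 3229 CPM in the I-PpoI and 14965 UMIs at 8075 CPM in the wild-type library, a ratio of 0.400 (0.368 to 0.434). Umod was at 11224 against 17105 CPM (0.656, 0.628 to 0.686) and Kcnj1 at 269 against 537 CPM (0.501, 0.370 to 0.664). Wnk1 was at 94.98 against 445 CPM (0.213, 0.126 to 0.339), and Bsnd had 3 against 211 UMIs (0.139, 0.028 to 0.412). Scnn1a had 201 against 175 CPM, and the interval of its ratio (1.14, 0.795 to 1.60) holds 1. Of the 6 members with at least 50 UMIs, 3 were at least 2-fold lower, where 23.9% of 4107 genes were, and 0 were at least 2-fold higher, where 6.33% were.

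The thick ascending limb-like cells of the 2 libraries came from different sub-clusters. Most I-PpoI cells (66 of 73) lay in sub-cluster 1, whose leading genes include Tagln, Sprr1a and Lcn2, while the wild-type cells lay in sub-cluster 2 (151), with haemoglobin and proximal tubule RNA among its leading genes, and in sub-cluster 8 (94). Injured epithelium genes summed to 42230 CPM in the I-PpoI and 4597 CPM in the wild-type cells of this class, proximal markers to 5.28 and 456 CPM, and mitochondrial genes took 23.2% and 32.4% of UMIs. The markers of the class itself summed to 3921 and 15907.5 CPM, and connecting tubule markers to 5720 and 3379 CPM. Their part in the ratios was not tested. In sub-cluster 1 alone (66 against 12 cells) Slc12a1 was at 1813 against 3133 CPM, a ratio of 0.579 (0.426 to 0.799), and Umod at 7577 against 6386 CPM, a ratio of 1.19 (0.970 to 1.46). Of these 2 members with at least 50 UMIs in sub-cluster 1, 0 passed 2-fold, where 2.56% of 313 genes were lower and 12.1% higher. The 5 I-PpoI cells of sub-cluster 8 held 360 of the 612 Slc12a1 and 1134 of the 2127 Umod UMIs of the class. In this sub-cluster, the 5 I-PpoI cells had 6008 CPM of Slc12a1 and 18925 of Umod, and the 94 wild-type cells 8694 and 18392. Restricting the class to cells with at most 25% mitochondrial UMIs (39 against 81) gave 3031 against 8920 CPM for Slc12a1 and 8238 against 17667 for Umod, ratios of 0.340 and 0.466.

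The values per cell were also compared at 1 depth, and cells with under 1000 UMIs were left out. These were 21 of the 73 I-PpoI and 73 of the 257 wild-type thick ascending limb-like cells. With each cell thinned to 1000 UMIs, the median thick ascending limb-like cell had 1.5 Slc12a1 UMIs (range 0 to 13, 52 cells) in the I-PpoI and 6 (0 to 23, 184 cells) in the wild-type library. Umod medians were 6 (0 to 31) and 11 (0 to 36), so the ranges overlapped for both genes. The share of such thinned cells with a Slc12a1 UMI was 65.4% against 88.6%, and with a Umod UMI 80.8% against 89.1%. In all cells of the class before thinning, shallow cells included, the shares were 64.4% and 79.8% for Slc12a1 and 74.0% and 85.99% for Umod.

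Uromodulin transcripts outnumbered NKCC2 transcripts by a different factor in each library. Umod UMIs per Slc12a1 UMI were 3.48 (3.18 to 3.81) in I-PpoI and 2.12 (2.08 to 2.16) in wild-type thick ascending limb-like cells. Sub-cluster 0 lay close to the first at 3.46, and sub-cluster 3 stood at 1.03. Over all kept cells the values were 3.54 and 2.24. Both genes are read by their 3′ ends and the quotient is not scaled by length, so its difference between cells is described and not its size.

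In the 41 wild-type distal convoluted tubule-like cells, Slc12a3 was found with Umod at 3074, Wnk1 at 2721, Kcnj1 at 798, Scnn1a at 361 and Bsnd at 101 CPM. Thinned to 1000 UMIs, the 38 of these cells with at least that depth had a median of 5 Slc12a3 UMIs (range 0 to 17), 2 Umod and 2 Wnk1 UMIs. The I-PpoI library had 1 such cell, so no ratio is given for this class.

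Connecting tubule-like cells, the class with the most I-PpoI Slc12a3, differed in both directions. Slc12a3 had 1738 UMIs at 1642 CPM in 37 I-PpoI cells and 110 UMIs at 172 CPM in 47 wild-type cells, a ratio of 9.53 (7.85 to 11.7), and of 50.4 (31.8 to 85.3) without the cell with the most Slc12a3 UMIs in each library. At least 3 Slc12a3 UMIs were found in 19 of the 37 and 2 of the 47 cells. The ENaC subunits were lower in the I-PpoI cells: Scnn1a at 329 against 578 CPM (0.569, 0.490 to 0.660), Scnn1b at 208 against 508 (0.409, 0.343 to 0.487) and Scnn1g at 152 against 534 (0.285, 0.235 to 0.344). Kcnj1 was at 270 against 650 CPM (0.415, 0.356 to 0.484) and Wnk1 at 1122 against 1006 (1.12, 1.01 to 1.23). Of 8 members with at least 50 UMIs, 3 were at least 2-fold lower and 2, Slc12a3 and Umod, at least 2-fold higher, where 4.81% and 7.86% of 4467 genes were.

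This class is not the same mixture in both libraries. Principal cell markers such as Aqp2 summed to 895 CPM in the I-PpoI and 6516 CPM in the wild-type cells. Injured epithelium genes summed to 37749 and 8691 CPM, and macrophage markers to 314 and 36.0 CPM. The part of these differences in the ratios was not tested. The 19 I-PpoI cells with at least 3 Slc12a3 UMIs had Slc12a3 at 2966, Wnk1 at 1561 and Umod at 575 CPM, beside Calb1 and S100g of the connecting tubule at 4117 and 25215 CPM. The 18 other I-PpoI cells had Scnn1a at 374, Scnn1b at 345, Scnn1g at 243 and Kcnj1 at 233 CPM, against 598, 548, 557 and 645 CPM in the 45 wild-type cells with under 3 Slc12a3 UMIs. Within these Slc12a3-poor cells the 4 genes remained lower in the I-PpoI library. These cells were still unlike in connecting tubule markers, with Calb1 at 8495 against 2249, Trpv5 at 417 against 108 and Klk1 at 1726 against 18169 CPM. With other filters and clusterings the class took in other cells, and the direction of Slc12a3, Umod, Scnn1a, Scnn1b, Scnn1g and Wnk1 turned in at least 1 of them (values in the closing section). Kcnj1 and Bsnd were lower in the I-PpoI library in each alternative run on this class.

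Intercalated cell-like cells had markers of their class at similar sums in both libraries, 7395 and 8007 CPM. Principal cell markers were less alike, with a sum of 1184 CPM for the I-PpoI library against 2102 CPM. Connecting tubule markers were also lower, at 7401 against 11397 CPM. What these differences contribute to the ratios of this class was not tested. Kcnj1 was at 38.8 against 185 CPM there (ratio 0.209, 0.130 to 0.323), and in both libraries it was seen in few cells, 3 of 33 and 11 of 48. Bsnd, the chloride channel subunit that these cells use, was at 112 against 187 CPM (0.598, 0.444 to 0.799). Scnn1a was at 327 against 445 CPM (0.734, 0.616 to 0.873) and Scnn1g at 79.3 against 139 (0.569, 0.399 to 0.800). For Scnn1b (184 against 208 CPM, ratio 0.887, 0.695 to 1.13) and Wnk1 (257 against 286, ratio 0.900, 0.732 to 1.10) the intervals hold 1. Slc12a1 had 0 against 67 UMIs, of which 1 wild-type cell held 62, and Umod 120 against 328 CPM (0.365), of which 1 wild-type cell held 223 of 278 UMIs. Without the cell with the most UMIs of the gene in each library, Umod was at 76.8 against 67.8 CPM (ratio 1.13, 0.749 to 1.71) and Slc12a1 had 0 against 5 UMIs. Scnn1g moved in the same way to 0.352 and Kcnj1 to 0.104. Wnk1, of which 1 I-PpoI cell held 64 of the 159 UMIs, moved to 0.660 (0.512 to 0.846), an interval that no longer holds 1. Of 8 members with at least 50 UMIs, 3 (Slc12a1, Umod and Kcnj1) were at least 2-fold lower, where 4.08% of 4215 genes were, the first 2 of them resting on these single cells, and 0 were at least 2-fold higher, where 9.4% were. In cells with at most 25% mitochondrial UMIs (32 against 27) the ratios were 0.170 for Kcnj1, 0.676 for Bsnd, 0.626 for Scnn1a, 0.456 for Scnn1g, 0.758 for Scnn1b and 1.01 for Wnk1.

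Per cell, the 2 cotransporters stayed apart. With 3 UMIs as the limit, 90 I-PpoI and 175 wild-type distal cells had Slc12a1, 38 and 58 had Slc12a3, and both were found in 0 of 354 and 1 of 519 cells, where 0 of 354 allows a share of up to 0.847% at a limit of 3 cells. Umod accompanied Slc12a1 in 93.3% and 97.7% of the Slc12a1 cells, and Slc12a3 in 47.4% and 70.7% of the Slc12a3 cells. Wnk1 was found in 81.6% (31 of 38) and 79.3% (46 of 58) of the Slc12a3 cells. ENaC beta and gamma parted more in the I-PpoI library: Scnn1g was found in 46.6% of Scnn1b cells (27 of 58) against 86.9% (53 of 61). In the other direction, Scnn1b was found in 84.4% and 85.5% of the Scnn1g cells. Scnn1g UMIs per Scnn1b UMI over all kept cells were 0.607 (0.531 to 0.694) and 0.979 (0.872 to 1.10), and in connecting tubule-like cells 0.732 (0.593 to 0.901) and 1.05 (0.901 to 1.23). These per-cell counts are not thinned, and the median distal cell held 8340 UMIs in the I-PpoI and 3619 in the wild-type library.

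**Figure D5:**
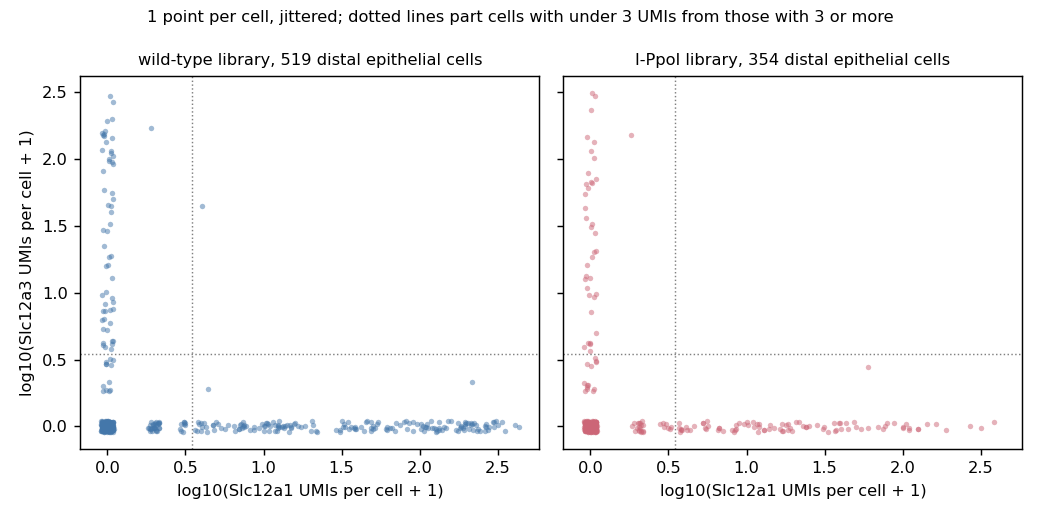
Slc12a1 against Slc12a3 UMIs of each distal epithelial cell (log10 of UMIs + 1, 1 point per cell with a small random shift) in the 519 wild-type and 354 I-PpoI cells. Cells lie along the 2 axes, and 1 wild-type cell lies in the corner with at least 3 UMIs of both.

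Levels in cells that should lack these genes give a background against which the others are read. In classes outside the epithelium Slc12a1 stood at 4.72 CPM in the I-PpoI and 5.49 in the wild-type library, Umod at 13.6 and 11.8 and Slc12a3 at 0.568 and 2.03 CPM. In the I-PpoI library 2 cells held 212 of the 312 Umod and 2 cells 78 of the 108 Slc12a1 UMIs of these classes. Leaving out such a pair of cells in each library gave 4.38 against 9.38 CPM for Umod and 1.31 against 5.10 CPM for Slc12a1. Scnn1b and Scnn1g were at or under 1.63 CPM there. A Umod UMI was found in 2.57% of macrophage-like I-PpoI cells and 3.21% of wild-type ones, at median depths of 8109 and 4446 UMIs. Wnk1 differed from the rest: it was at 241 and 269 CPM outside the epithelium and in 70.8% and 56.6% of these cells, the other members in at most 4.49%. In proximal tubule-like cells Wnk1 was lower, at 87.2 and 54.9 CPM.

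Other genes of the same pathway were followed as fixed lists over all kept cells. Of 7 basolateral channel and pump genes, 7 were at least 2-fold lower in the I-PpoI library, such as the potassium channel gene Kcnj16 (ratio 0.288) and Fxyd2 (0.327), with a median log2 ratio of -1.23. Fxyd2 is also a proximal tubule gene. Of 8 kinase and ubiquitin regulators 2 were lower, Klhl3 (0.269), which marks WNK kinases for degradation, and Wnk4 (0.384), with a median of -0.54. Of 4 genes of mineralocorticoid and calcium sensing, 3 were lower: Hsd11b2 (0.227), which shields the receptor from glucocorticoids, Casr (0.321) and the receptor Nr3c2 (0.386). Tsc22d3, which glucocorticoids induce in many cell types, was higher at 2.61. Of 5 protease and mucin genes 2 were lower, Prss8 (0.239) and Hpn (0.342), and of 13 distal transcription factors 6 were, among them Esrrb (0.105) and Elf5 (0.126). Of 12 injured epithelium genes 10 were at least 2-fold higher, such as Lcn2 (23.6), Sox9 (63.8) and Krt19 (70.3), and Havcr1 had 1576 against 0 UMIs. The background was 13.3% lower and 16.8% higher.

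Within the distal epithelium as a whole, fewer of these genes passed 2-fold. Of the basolateral genes 2 of 7 were at least 2-fold lower, among them Kcnj10 (0.468), where 5.56% of all genes were, of the kinase regulators 1 of 8, Klhl3 (0.414), and of the mineralocorticoid genes 2 of 4, Hsd11b2 (0.369) and Nr3c2 (0.496). Elf5 (0.176) and Esrrb (0.187) were the transcription factors past 2-fold, 2 of 13. Muc1 was higher at 2.69, 1 of 5 protease and mucin genes, and of the injured epithelium genes 10 were higher, where 10.7% of all genes were, with Lcn2 at 42.9 and Spp1 at 11.8. In intercalated cell-like cells Hsd11b2 (0.255), Nr3c2 (0.431), Kcnj10 (0.376) and Fxyd2 (0.293) were lower and Muc1 (3.98) higher. In thick ascending limb-like cells 0 of the 7 basolateral genes passed 2-fold, while Casr (0.453), Cul3 (0.209) and Usp2 (0.466) were lower, where 23.9% of genes were, and Muc1 (2.73), Clu (18.7) and Spp1 (13.6) higher, where 6.33% were.

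The genes whose wild-type pattern was most like each member's were taken by Pearson correlation of log2(CPM + 10) across 25 groups of cells, among 10664 genes. The groups are from 1 library and share its depth and free RNA, so the values are descriptions. Slc12a1 was most like Ptger3 (0.914), a prostaglandin receptor, Tmem207 (0.905) and Cldn16 (0.900), a tight junction protein of the thick ascending limb, and these 3 are among the markers that named the cells. Among the genes most like Umod were Gpx6 and Egf, each at 0.946, and Egf is also one of those markers. Slc12a3 was most like Trpm6 (0.964), a magnesium channel, Cwh43 (0.914) and Klhl3 (0.912). Trpm6 and Cwh43 are also among the markers that named the cells. Among the genes most like Kcnj1 were Wfdc2 (0.967) and Tmem213 (0.963), and among those most like Bsnd were Arfgef3 (0.968) and Tmem52b (0.952). Scnn1b was closest to Scnn1g (0.990) and then to Hsd11b2 (0.965), while Scnn1a was closest to Defb1 (0.962), an antimicrobial peptide of the distal tubule. Wnk1 had the loosest match, Ccdc28b at 0.854.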

How the data were processed

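UMIs (molecules) per gene and barcode were deposited as whole-number counts. The authors made them with Cell Ranger and the mm10 reference and used Seurat version 3 for later steps, per the labels' protocols. The labels name Cell Ranger 3.1 and the file headers 6.0.2, and which of them made the counts is not settled. Kit version 3.1 was used. Deposited barcodes held 500 or more UMIs: 5268 (I-PpoI, 37811289 UMIs) and 5536 (wild type, 27793633 UMIs).

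Barcodes with under 200 genes or over 50% mitochondrial UMIs were left out. Too few genes were found in 1144 I-PpoI and 1732 wild-type barcodes, and too high a mitochondrial share in 1058 and 2054. The barcodes left out held 0.518% to 3.83% of each member's UMIs in the I-PpoI and 5.01% to 12.1% in the wild-type library. Scrublet marked 0.479% of barcodes as doublets. A share below 0.5% was taken as a failure, and the highest 4% of scores (142 and 123 barcodes) were removed instead. The libraries share 6 barcodes, of which 3 were kept in both. Free RNA was not removed.

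Cells were scaled to 10000 counts, log-transformed and clustered by the Leiden method (resolution 1, 15 nearest neighbours, 30 components of the 2000 most variable genes, scanpy 1.11.5, igraph 0.11.9, scikit-learn 1.9.0, numpy 2.4.6, scipy 1.17.1, Python 3.11.15). Of 32 clusters, 6 were clustered again into 12 distal sub-clusters. The members were kept out of the variable genes, and names came from 22 marker lists without them. A marker was detected from 25 CPM upward and where its level plus 10 CPM was 4 times that of the median cluster. A name needed 3 markers and leading genes without more markers of another class. Sub-clusters also needed a marker share of at least 0.5 of the list and a mean marker level above the median sub-cluster. An own marker among the leading genes was required for sub-clusters and for shallow main clusters. These thresholds were set after the data were seen, so classes are rebuilt and can differ from the study's.

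Summed UMIs have exact Poisson intervals, shares Clopper-Pearson and ratios exact conditional binomial intervals, at 95%, without molecules' dependence within a cell or variation between mice. Median log2 ratios add 0.5 counts and use members with 10 UMIs or more. Cells were thinned to 1000 UMIs for shares and medians per cell, and cells with fewer UMIs were left out of these. The ratio, its interval and the 2-fold count were tested on simulated Poisson sums, which hold no variation between cells. Filtering, clustering, naming and thinning were not tested in this way. Members, lists and tests were chosen with earlier results of these data known. The 9 members are named, and genes of the 7 lists where they had 50 UMIs and differed at least 2-fold, up to 4 a list by the interval bound nearest to 1, with further list members as examples. The closest 3 genes by likeness were eligible. Some genes are not reported here.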

Additional observations from a re-analysis of the deposited data

How the results depend on the processing

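Over all kept cells and over all distal sub-clusters, each member stayed lower in the I-PpoI library under every alternative run. Some differences became very small: Wnk1 over all kept cells reached a log2 ratio of -0.009, close to equal levels. Over all distal sub-clusters Scnn1a reached -0.092, Scnn1b -0.101 and Umod -0.15. The median log2 ratio over all kept cells was -1.56 and moved to -1.29 with a mitochondrial limit of 25%, -1.79 with nuclear genes as the total and -2.14 with thinned cells. In distal tubule-like cells (thick ascending limb, distal convoluted, connecting and principal) the median log2 ratio of 0.15 has no stable sign and was negative in 8 alternatives. It was -0.98 with the 25% limit, -1.02 with 500 genes, -0.46 at resolution 0.5, -0.85 at 2.0, -0.79 with names by marker score, -0.045 with nuclear totals, -0.55 after thinning and -0.94 over all distal sub-clusters, the last chosen after seeing the data. It stayed positive only without doublet removal and with members let into the clustering. The wild-type Slc12a1 share in thick ascending limb-like cells (98.6%) was 94.3% with the 25% limit, 98.4% with 500 genes, 86.4% without doublet removal, 98.8% at resolution 0.5 and with members let into the clustering, and 96.3% at 2.0. The Slc12a3 share in distal convoluted, connecting and principal-like cells (94.8%) was 89.0% (25% limit), 96.01% (500 genes), 2.96% (resolution 0.5), 97.9% (2.0) and 97.4% (score). The Umod share outside the epithelium rose from 0.171% to 0.738% with the 25% limit, and 3 of 9 members kept their highest wild-type class at resolution 0.5. In connecting tubule-like cells signs turned: Umod was at -0.21 with the 25% limit, -1.14 without doublet removal, -1.55 at resolution 2.0 and -1.30 by score, Scnn1b at 0.20, 2.80 and 2.64 in the first 3 and 0.63 with 500 genes, Scnn1g at 1.94 without doublet removal and 1.48 at 2.0, and Slc12a3 at -0.059 without doublet removal. Scnn1a (-0.81) reached 0.92 and Wnk1 (0.16) reached -0.85 in the same class. In intercalated cell-like cells, Umod (-1.45) was at 0.18 without the cell with the most UMIs of the gene in each library, an alternative chosen after seeing the data. The cause was not tested. No paired analysis was possible because each group has 1 library. Leaving out a replicate was not possible for the same reason, and depth limits values that rest on a few UMIs.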

Other observations

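A single neutrophil-like I-PpoI cell of 181 held 54 of the 55 Slc12a1 UMIs and 58 of the 61 Umod UMIs of that class.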
